A study of Mus musculus with 160 samples.

Results

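The 10 genes described here, Fos, Fosb, Jun, Junb, Jund, Egr1, Ier2, Ier3, Atf3 and Dusp1, are AP-1 subunits and other immediate early genes, and each had 1 of the 23420 rows of a table of expression in single mouse cells. They were chosen by name after their TPM values in these cells had been seen, with the Gata2 value used to divide the day-21 cells, so the levels and the differences between groups are given as a description, with no test. To follow the path from endothelium to blood, the study sorted single cells from cultures of C57BL/6 pluripotent stem cells and sequenced their RNA. The cells of all groups came from differentiation in which doxycycline turned on Runx1 and Hoxa9 from a cassette at Rosa26, and the stem cells of this line are embryonic by the study's text, whereas the labels give embryonic or induced pluripotent for each cell without saying which. Of the 160 cells, 65 were induced hemogenic endothelial cells (iHECs), sorted as CD31+CD41lowCD45-c-kit+CD201high. Induced hematopoietic progenitor cells (iHPCs) were the blood cells that formed from them on OP9-DL1 stroma, a feeder line that displays a Notch ligand, and 21 were of day 14, 18 of day 17 and 56 of day 21, that is days 3, 6 and 10 of maturation. At days 14 and 17 the gate was CD45+ and lineage-negative, and at day 21 it was Ter119-CD45+c-kit+CD127+. Day and sort gate therefore cannot be told apart between iHECs and day 14 or between day 17 and day 21. No animal or culture is named in the labels, so each group counted as 1 sample, cells were not treated as replicates, and every SD below is the spread between cells.

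AP-1 is a pair of basic leucine zipper proteins. Fos proteins bind DNA only together with a Jun protein, whereas Jun proteins can also pair with each other, and Atf3 can join the same kind of pair. Immediate early genes are transcribed within minutes of a growth factor, a cytokine or a stress, without new protein synthesis, when kinases of the MAP kinase cascades activate transcription factors that are already bound at their promoters. Their transcripts are short-lived. Dusp1, which removes phosphate from MAP kinases, and Ier3 belong to the feedback on that signal. The same genes are known to be induced when tissue or cultured cells are detached by enzymes and sorted. In this study single-cell suspensions for sorting were prepared with trypsin, as its methods state in general.

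The promoters of Fos, Dusp1 and Atf3 are shown because they hold the cyclic AMP response motif, and that of Jun because it held none of the motifs marked and its level differed most between iHECs and day 14. Each is the 250 bases before the RefSeq start of the gene, on the gene's strand, in build GRCm38.p6, which mm10 names. Capitals mark TGACGT or its reverse complement ACGTCA, the full motif TGACGTCA, and the TATA motif TATAAA. They lie at chr12:85473640-85473889 (Fos, plus strand), chr17:26508473-26508722 (Dusp1, minus strand), chr1:191183334-191183583 (Atf3, minus strand) and chr4:95052223-95052472 (Jun, minus strand).
Fos: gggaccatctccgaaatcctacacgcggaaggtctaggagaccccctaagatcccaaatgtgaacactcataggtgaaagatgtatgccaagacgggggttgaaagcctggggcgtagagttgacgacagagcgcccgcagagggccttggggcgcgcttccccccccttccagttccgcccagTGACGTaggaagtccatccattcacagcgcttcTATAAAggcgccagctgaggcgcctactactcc
Dusp1: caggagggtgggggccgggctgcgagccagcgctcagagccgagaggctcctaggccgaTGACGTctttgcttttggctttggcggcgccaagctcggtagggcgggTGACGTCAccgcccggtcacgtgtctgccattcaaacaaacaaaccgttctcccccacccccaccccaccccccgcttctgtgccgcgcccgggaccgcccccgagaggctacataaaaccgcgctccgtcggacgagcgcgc
Atf3: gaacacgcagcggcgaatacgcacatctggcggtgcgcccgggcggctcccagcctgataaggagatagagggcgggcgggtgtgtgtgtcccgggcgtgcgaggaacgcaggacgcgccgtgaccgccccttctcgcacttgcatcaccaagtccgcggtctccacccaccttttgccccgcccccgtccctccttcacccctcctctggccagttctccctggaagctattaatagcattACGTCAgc
Jun: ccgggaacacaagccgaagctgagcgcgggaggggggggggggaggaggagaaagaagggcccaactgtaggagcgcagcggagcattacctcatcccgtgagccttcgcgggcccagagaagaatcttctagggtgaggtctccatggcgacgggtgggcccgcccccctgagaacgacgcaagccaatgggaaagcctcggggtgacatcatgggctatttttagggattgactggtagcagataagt

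Promoters of 8 of the 10 genes were matched by symbol, those of Egr1 and Ier2 not. TGACGT, read on both strands, was in 3 of these 8 windows, beside 6.47% of 32851 windows of the same length, and TGACGTCA, which contains TGACGT on either strand, was in that of Dusp1 alone, beside 1.55%. In Fos the motif began 66 bases before the start and TATAAA 33 bases before it. The Fos window was the only 1 of the 8 with TATAAA, beside 12.4% of all windows. The AP-1 motif TGACTCA was in 0 of the 8 windows, beside 4.46%, and the CArG box, the core that serum response factor binds, in 0 of the 8, beside 1.47%. CCAAT was in the windows of Jun, Junb and Ier3, beside 33.8%. The search took exact matches only, so near forms of a motif, such as tgacatca in the Jun window, are not counted. A match describes these letters only, and the serum response element of Fos is known to lie upstream of a window of this size.

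Values are TPM, transcript abundances scaled by length and library, which scale each cell to the same total and so keep neither read counts nor depth. The number of genes above 1 TPM had a median of 4926 over iHECs and of 8200, 8101 and 6695.5 over the iHPCs of days 14, 17 and 21. Of 10 endothelial marker genes a median of 9 were above 1 TPM in an iHEC and a median of 1 in a day-21 cell, where 7, Cdh5, Kdr and Tek among them, were listed at 0 in every cell. Genes that all cells use were also listed at 0 in places, with 6 of the 160 cells at 0 for Hprt and 28 for Tbp, so a value of 0 is written as listed at 0 and not as absence. Some cells stood very near to each other. In 9 pairs of cells, 4 of iHECs, 4 of day 14 and 1 of day 17, the log2 values over all genes correlated at a Pearson r of 0.959 to 0.994, whereas the median over all pairs of a group was 0.659 for iHECs, 0.900 for day 14, 0.864 for day 17 and 0.769 for day 21. No columns were identical, and whether both cells of a pair came from 1 cell or 1 library was not tested. The counts of differences and the median correlations of these groups are therefore also given with 1 cell of each pair left out, which left 61 iHECs, 17 day-14 cells and 17 day-17 cells.

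Together, the 10 genes were highest in iHECs. An iHEC held a median of 9 of them above 1 TPM, compared with 7 at day 14, 7 at day 17 and 5 at day 21. Their summed TPM ranged from 567 to 24335 in iHECs with a median of 3614, from 223 to 5478 at day 14 with a median of 1013, from 9.51 to 1798 at day 17 with a median of 719, and from 1.42 to 5050 at day 21 with a median of 479. The mean of log2(TPM + 1) over the 10 genes was 6.54 ± 1.3 (SD between cells, n = 65 cells) in iHECs, 4.37 ± 1.26 (n = 21) at day 14, 3.95 ± 1.04 (n = 18) at day 17 and 3.09 ± 1.32 (n = 56) at day 21. The ranges of the groups overlapped. In 60 of 65 iHECs at least 8 of the 10 genes were above 1 TPM, whereas 10 of 21 day-14 cells, 4 of 18 day-17 cells and 2 of 56 day-21 cells reached that number. The genes did not share 1 course, however. Ordering the 4 groups by the mean log2 value of each gene gave 30 steps between neighbors, and only 4 of them were larger than the larger of the 2 SDs between cells: those of Fos from day 17 to day 21, of Jun and of Dusp1 from iHECs to day 17, and of Egr1 from iHECs to day 14.

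Fos (chr12:85473890-85477273, plus strand), the founding Fos-family subunit, was above 1 TPM in every cell of the first 3 groups and in a minority of day-21 cells. Its TPM ranged from 1.27 to 8963 in iHECs with a median of 367. At day 14 the range was 1.68 to 3040 with a median of 605, and at day 17 it was 1.19 to 1008 with a median of 260.2. At day 21 the range was 0 to 448 with a median of 0. Fos was listed at 0 in 39 of 56 day-21 cells and in none of the 104 cells of the earlier groups. The share of cells above 1 TPM was 100% in iHECs (exact Clopper-Pearson 95% interval 94.5 to 100%) and 26.8% at day 21 (15.8 to 40.3%), intervals that cover counting error over cells only. Of the 15 day-21 cells above 1 TPM, 13 were above 10 TPM, and 4 were above 100 TPM. Within the earlier groups the spread was wide as well. In 15 of the 104 earlier cells Fos was at or below 10 TPM, and it exceeded 100 TPM in 48 iHECs, 16 of 21 day-14 cells and 13 of 18 day-17 cells.

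The step of Fos to 0 was uncommon among genes above 0 in every earlier cell, a set defined by the pattern of Fos itself. Across all rows, 559 genes were above 0 in all 104 earlier cells, and 467 of these were also above 0 in all 56 day-21 cells. Just 3 of the 559 were listed at 0 in 20 or more day-21 cells, a count chosen after the values were seen. These were Fos, Apoe, the lipid carrier apolipoprotein E, in 32 cells, and Tubb6, a beta-tubulin, in 21 cells. The median TPM of Apoe was 2306 in iHECs but 40.3 and 46.9 at days 14 and 17, and that of Tubb6 was 457, 152 and 51.7 in the same order. Of the 3, Fos had the highest median at day 17. Across all 9674 genes compared, a cell had a median of 43.7% of genes listed at 0 if an iHEC, 15.6% if of day 14, 16.4% if of day 17 and 29.5% if of day 21, so more genes were listed at 0 in a day-21 cell than in a day-17 cell, and what part this had in the Fos values was not tested.

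Fosb (chr7:19302696-19310051, minus strand), the second Fos-family subunit measured, was near its floor throughout. The cells above 1 TPM were 10 iHECs, 4 day-14 cells, 2 day-17 cells and 2 day-21 cells, with a median of 0 TPM in each group. The highest value was 86.5 TPM, in an iHEC. With 18 such cells in all it was the 1 gene of the 10 that did not pass the filter of 1 TPM in more than 30 cells.

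Jun, the gene of the c-Jun subunit, was high in iHECs and low in all iHPC groups. In iHECs its TPM ranged from 0.571 to 2361 with a median of 394, and 57 of 65 cells were above 100 TPM. At day 14 it ranged from 0 to 55.8 TPM with a median of 7.27, and at day 17 from 0 to 133 TPM with a median of 11.2. At day 21 the median was 0 and the highest value 61.5 TPM, and 18 of 56 cells were above 1 TPM. A single iHPC, of day 17, was above 100 TPM. The gene lies at chr4:95049034-95052222 on the minus strand and overlaps an antisense gene, Junos. The kit's strandedness is not given in the sources used here, so reads of the overlap cannot be told apart.

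Junb and Jund were above 1 TPM in most cells of every group. Junb, which often acts against Jun, had medians of 188 TPM in iHECs (range 0.211 to 1287), 68.4 at day 14 (0 to 800), 157 at day 17 (0.827 to 323) and 45.9 at day 21 (0 to 507). It was above 1 TPM in 63 of 65, 19 of 21, 17 of 18 and 49 of 56 cells. Jund, the subunit most steadily made in resting cells, had medians of 54.9 TPM in iHECs (0.136 to 326), 68.6 at day 14 (10.9 to 239), 34.3 at day 17 (0.240 to 67.4) and 29.7 at day 21 (0 to 235.5). Its groups overlapped over most of their ranges, and all 3 steps in its order of groups, from day 14 down through iHECs and day 17 to day 21, were smaller than the spread between cells. Junb overlaps Prdx2, a protein-coding gene on the other strand, and Jund overlaps an antisense gene, so part of either value could come from the partner.

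Egr1 and Atf3 were also higher in iHECs than in each iHPC group. Egr1, a zinc finger factor induced through serum response factor, exceeded 1 TPM in 60 iHECs, with a median of 307 and a range of 0 to 1918 TPM. At day 14 it was above 1 TPM in 8 of 21 cells and its median was 0.398 TPM, with a highest value of 149.8. At day 17 the highest value was 14.4 TPM and 3 of 18 cells were above 1 TPM. At day 21 it was above 1 TPM in 9 of 56 cells, but 2 of these were above 100 TPM and 1 reached 569. Atf3, a stress-induced factor that often represses its targets, exceeded 1 TPM in 45 iHECs, with a median of 60.9 TPM and a range of 0 to 2203. It was above 1 TPM in 9 of 21 day-14 cells and 3 of 18 day-17 cells, none of which exceeded 19.2 TPM. At day 21 it was listed at 0 in all 56 cells.

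Ier2, a short nuclear protein, was the steadiest of the 10 in presence. Levels above 1 TPM were found in 64 iHECs, all 21 day-14 cells, 17 day-17 cells and 55 day-21 cells. Its median stepped down from 566 TPM (0.289 to 2143) in iHECs to 203 (61.5 to 1075) at day 14, 143 (0.680 to 278) at day 17 and 119 (0.962 to 768) at day 21. The ranges overlapped at every step.

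Ier3, an inhibitor of apoptosis and a substrate of ERK, was the single member that was higher at day 21 than at day 17 by the fold used here. Its TPM had a median of 199 in iHECs (0 to 1337), 16.7 at day 14 (0 to 814), 26.4 at day 17 (0 to 192) and 97.8 at day 21 (0 to 2649). In 21 of the 56 day-21 cells it was above the highest day-17 value. Dusp1 was at 766 TPM in the median iHEC, the highest median of the 10, with a range of 4.80 to 8302. In the iHPCs its medians were close to each other, 65.5 TPM at day 14 (0 to 316), 61.7 at day 17 (0 to 224) and 66.5 at day 21 (0 to 863), and its means at day 14 and day 21 on the log2 scale differed by 0.0040. Dusp1 overlaps Ergic1, a protein-coding gene on the other strand, in the annotation used.

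**Figure D1:**
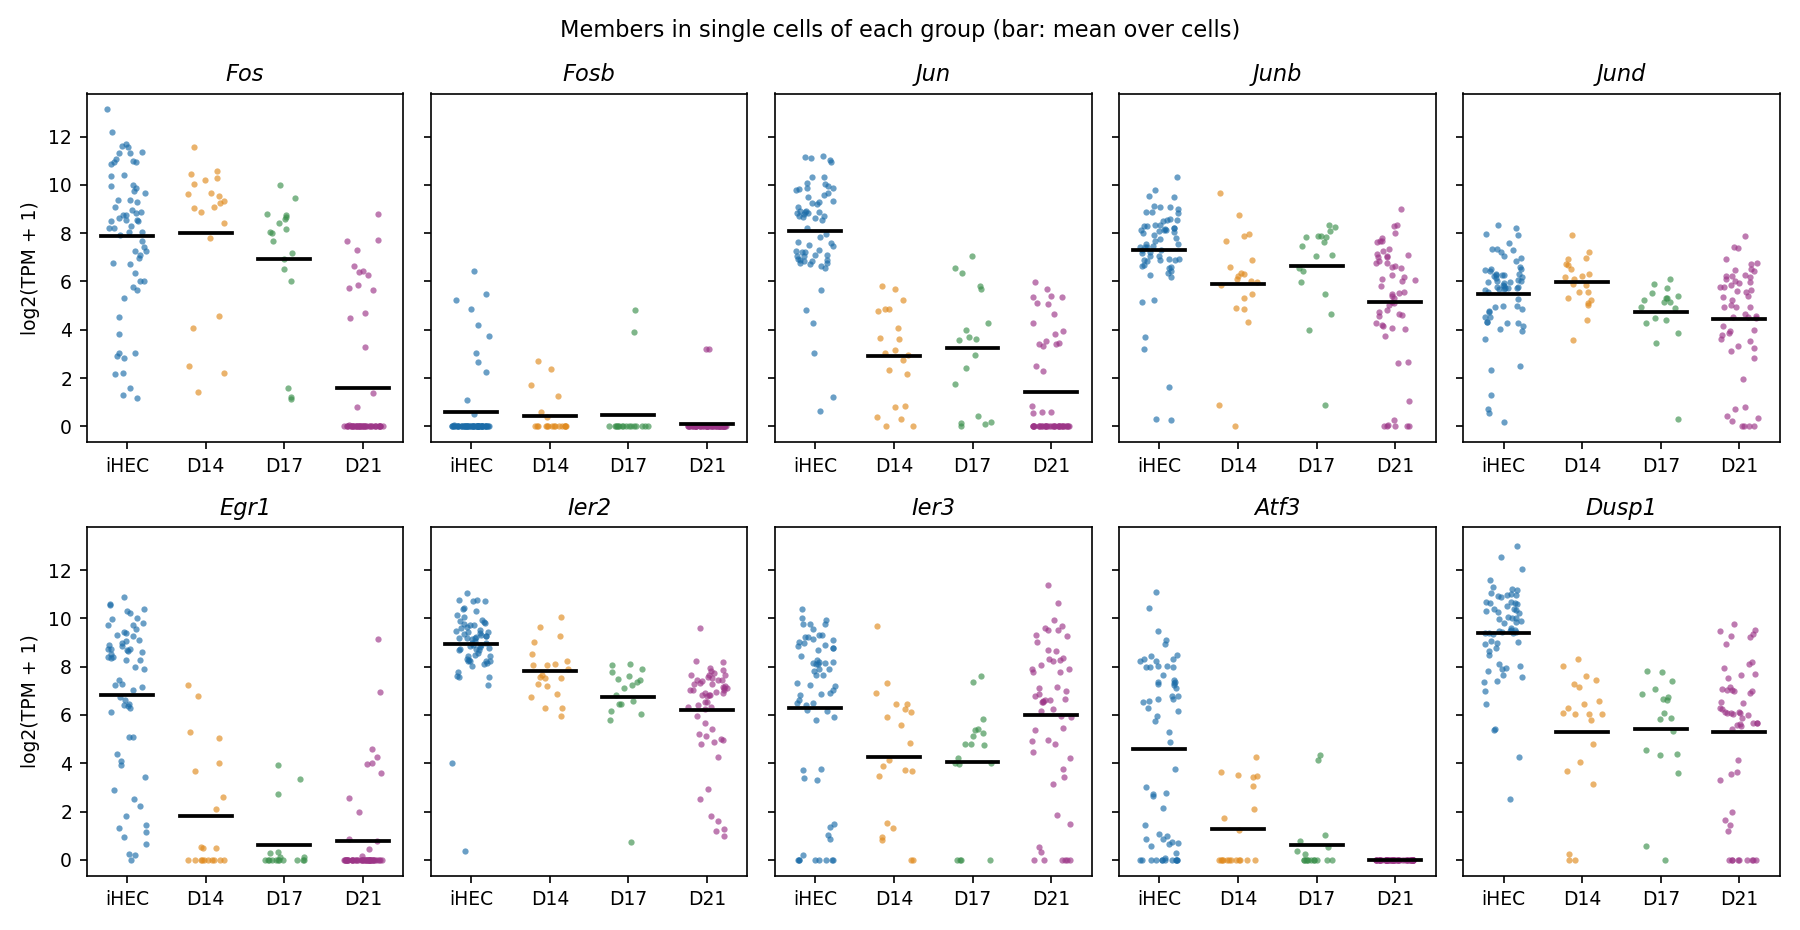
Level of each of the 10 genes in every cell, as log2(TPM + 1) on the vertical axis, for the 65 iHECs and the iHPCs of day 14 (21), day 17 (18) and day 21 (56); each point is a cell and each bar the mean of a group. Fos is above 0 in all 104 earlier cells and listed at 0 in 39 of 56 day-21 cells, whereas the group means of Jun, Egr1, Atf3 and Dusp1 are lower at day 14 than in iHECs.

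Differences between consecutive groups were taken as the later minus the earlier mean of log2(TPM + 1), and a gene was called past the fold at a difference of 1 or more in size. Fosb is counted among the 10 but not among the 9674 genes. Neighboring comparisons share the cells of day 14 or of day 17. From iHECs to day 14, 7 of the 10 genes were lower by 1 or more and 0 were higher, whereas of the 9674 genes compared 11.5% were lower and 48% higher. The differences were -5.15 for Jun, -5.02 for Egr1, -4.11 for Dusp1, -3.32 for Atf3, -2.06 for Ier3, -1.39 for Junb and -1.12 for Ier2. Just 62 of the 9674 genes had a lower difference than Jun. Fos at 0.13 and Jund at 0.49 were the exceptions beside Fosb at -0.18, and both lay below the median of all genes, which was 0.93. Relative to that median, 8 of the 10 genes were lower by 1 or more, beside 24.4% of all genes lower and 27.3% higher. The gene added to the 7 was Fosb, at -1.10, which was near its floor and is not among the 9674 genes. With 1 cell of each similar pair, the same number, 7, were lower, and the mean difference over the 10 genes was -2.24 in place of -2.17. Endothelial markers moved with this step. All 10 of them were lower by 1 or more, and their summed TPM ranged from 160 to 5939 in iHECs and from 0.124 to 175.8 at day 14, where Cdh5, Tek and Sox18 were listed at 0 in every cell. Neutrophil or monocyte markers moved too, from a median summed TPM of 0 (0 to 4062) in iHECs to 643 (0.787 to 1857) at day 14. The sort gate also changed, as did the number of genes detected, and the part of these in the differences was not tested.

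From day 14 to day 17 the differences were small. Fos (-1.07), Jund (-1.22), Egr1 (-1.22) and Ier2 (-1.07) were lower by 1 or more, 4 of the 10 genes, beside 3.89% of all genes lower and 15.5% higher. Relative to the median over all genes, the same number, 4, were lower, beside 7.09% of all genes lower and 9.03% higher. Jun at 0.34, Junb at 0.73 and Dusp1 at 0.13 lay on the other side of 0, and that median was 0.28. The mean over the 10 genes was -0.42 and each of the 4 differences was smaller than the larger SD between cells of the 2 groups. With 1 cell of each similar pair 3 genes were lower, Fos being at -0.92. The count also moved under other settings. No gene was lower by 1 or more with a pseudocount of 10 TPM, and 1 was, with 1 other higher, without the lowest 25% of cells by genes detected. T lymphoid markers moved with this step, with a median summed TPM of 11.8 (0 to 120) at day 14 and 1237 (0 to 2047) at day 17, 4 of the 5 markers compared being higher, and their part was not tested.

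From day 17 to day 21, Fos stood apart. Its difference was -5.36, and 1 of the 9674 genes had a lower one. Jun at -1.84 and Junb at -1.49 were also lower by 1 or more, so that 3 of the 10 genes were lower, beside 38.5% of all genes, whose median was -0.74. Thus the count of 3 was near the background while the size for Fos was not. Relative to the median, Fos and Jun were lower by 1 or more, at -4.62 and -1.11, beside 13.1% of all genes, and Ier3 was higher, at 2.69, beside 10.3%. Ier3 at 1.96 was higher, 1 of the 10 genes beside 2.33% of all genes, and 74 genes had a higher difference. The other 6 genes lay between -0.63 (Atf3) and 0.17 (Egr1). With 1 cell of the similar day-17 pair the difference was -5.25 for Fos and 2.15 for Ier3. For Fos the size depended on the pseudocount, -7.64 with 0.1 TPM and -3.26 with 10 TPM. Mast cell or basophil markers moved with this step, from a median summed TPM of 11.05 (0 to 165) at day 17 to 1765 (87.4 to 147550) at day 21, where 10 of 11 were above 1 TPM in some cell and Prss34 was listed at 0 in all.

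**Figure D2:**
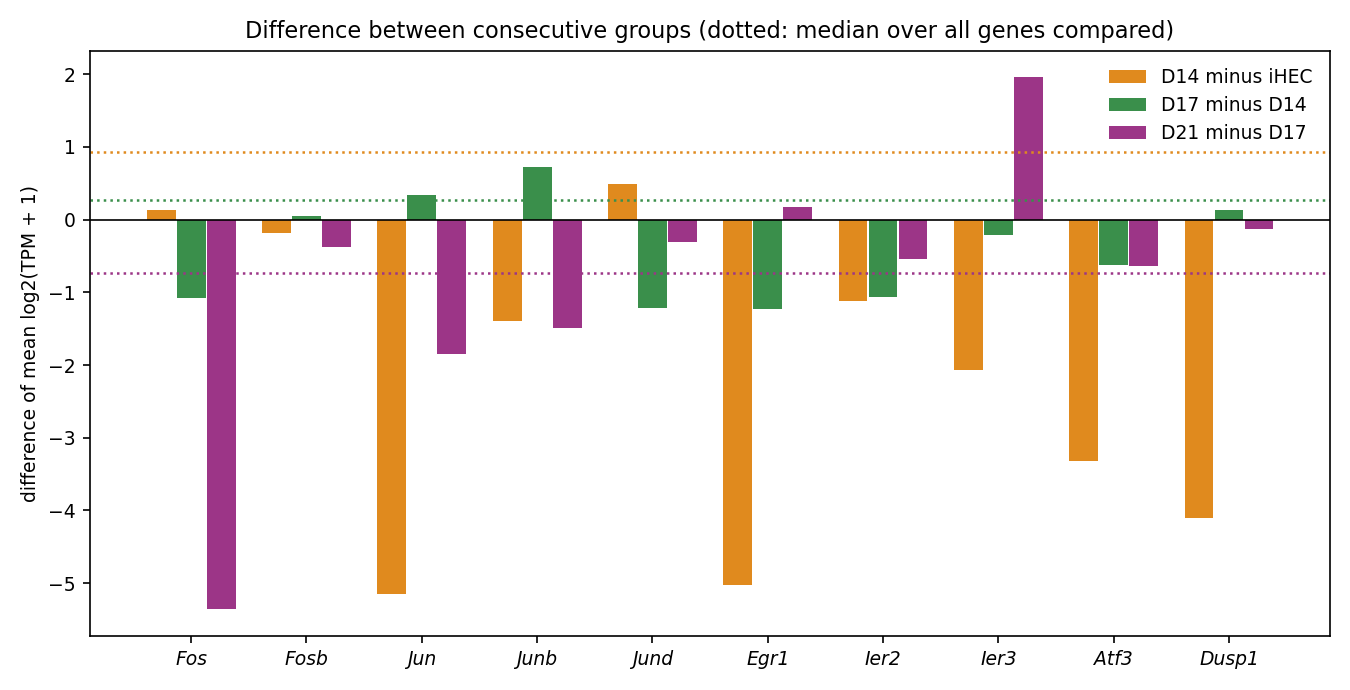
Difference of mean log2(TPM + 1) between consecutive groups for each of the 10 genes, later minus earlier; the bars give day 14 minus iHEC, day 17 minus day 14 and day 21 minus day 17, and the dotted lines the median over the 9674 genes compared in the same colors. Jun at -5.15 and Egr1 at -5.02 fall furthest below the line at the first step. At the last, Fos at -5.36 falls furthest below the line and Ier3 at 1.96 lies furthest above it.

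Other genes of the same pathway were read from lists given by function. Of 13 other genes of AP-1 partners, the 9 that could be compared included Batf, a Jun partner of lymphoid cells, which was higher at day 14 than in iHECs by 4.27 (median 0 and 83.2 TPM), and Atf4, the factor of the integrated stress response, higher by 2.80. In all, 5 of the 9 were higher and 0 lower by 1 or more at this step, at a median difference of 1.94 beside 0.93 for all genes, and the share that was higher was near the 48% of all genes. From day 17 to day 21, 0 were higher and 3 lower, beside 38.5% of all genes lower, led by the small Maf gene Mafg at -2.35.

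Of 38 other immediate early genes, 31 could be compared, and from iHECs to day 14 they divided. At this step 11.5% of all genes were lower and 48% higher by 1 or more. Lower by 1 or more were 15, among them Plk2 at -6.75 (median 1261 and 12.1 TPM), a kinase, Klf6 at -5.51 (431 and 11.3 TPM), a zinc finger factor, and Cyr61 at -4.66, a matrix protein. Higher by 1 or more were 11, among them Dusp5 at 4.27 (6.28 and 147 TPM), a phosphatase of ERK, Cebpb at 3.99 (34.4 and 284 TPM), a myeloid factor, and Nr4a1 at 3.81 (0 and 101 TPM), an orphan nuclear receptor. From day 17 to day 21, 15 were lower, led by Zfp36 at -3.94 (64.8 and 0 TPM), Dusp5 at -3.60 and Btg2 at -2.70. Zfp36 speeds the decay of AU-rich transcripts. Higher were 2, Nfkbia at 1.49 and Nfkbiz at 1.01, both regulators of the NF-kB family. Of all genes, 38.5% were lower and 2.33% higher at this step, and the median of the list was -0.96 beside -0.74 for all genes.

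Genes upstream in the pathway stayed close to all genes in their medians. Of 21 MAP kinase cascade and serum response factor genes, all compared, 8 were higher and 3 lower by 1 or more from iHECs to day 14, beside 48% and 11.5% of all genes, at a median difference of 0.83 beside 0.93 for all genes. Elk3, a partner of serum response factor, had a difference of -3.12 at this step. From day 14 to day 17, 0 were higher and 0 lower by 1 or more. From day 17 to day 21, 8 were lower, beside 38.5% of all genes, led by Map2k1, the kinase that activates ERK, at -2.07, at a median of -0.83 beside -0.74. Among 9 ERK feedback genes compared, 4 were lower from day 14 to day 17, beside 3.89% of all genes, including Etv5 at -1.65, Dusp4 at -1.58 and Spry2 at -1.27.

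Heat shock genes were read because handling can induce them along with immediate early genes. Their summed TPM had its highest median at day 14, whereas the highest value of the inducible Hspa1a was in an iHEC. The 15 heat shock genes summed to a median of 7167 TPM (2485 to 12582) in iHECs, 11184 (7921 to 14696) at day 14, 9223 (7130 to 14967) at day 17 and 7589 (2589 to 11366) at day 21. Abundant genes weigh most in such a sum, with day-14 medians of 1631 TPM for Hsp90aa1, 1267 for Hspe1 and 910 for Hspd1. Of 12 compared, 6 were higher and 1 lower by 1 or more from iHECs to day 14, near the 48% and 11.5% of all genes, at a median of 1.22 beside 0.93 for all genes. Hsph1 rose most, at 4.16, while Dnajb4 was the 1 lower, at -1.49, and Dnajb1 was at -0.09. Hspa1a, the inducible Hsp70, exceeded 1 TPM in 3 iHECs, 2 of 21 day-14 cells, 2 of 18 day-17 cells and 2 of 56 day-21 cells. Its highest value was 86.5 TPM in iHECs and 4.61, 2.54 and 13.5 TPM at days 14, 17 and 21. Hspb1 was the single gene of the 15 listed at 0 in all day-21 cells. Across cells the mean log2 value of the 10 genes and that of the heat shock genes had a Spearman rho of 0.135 in iHECs (n = 65 cells), 0.045 at day 14 (n = 21), -0.313 at day 17 (n = 18) and 0.283 at day 21 (n = 56). Within day 21, rho was 0.267 in cells with high Gata2 (n = 22) and 0.474 in those with low Gata2 (n = 34). The Gata2 split is described below. Cells of a group share library preparation and scaling to a common total. What part handling had in the levels of the 10 genes was not tested.

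**Figure D3:**
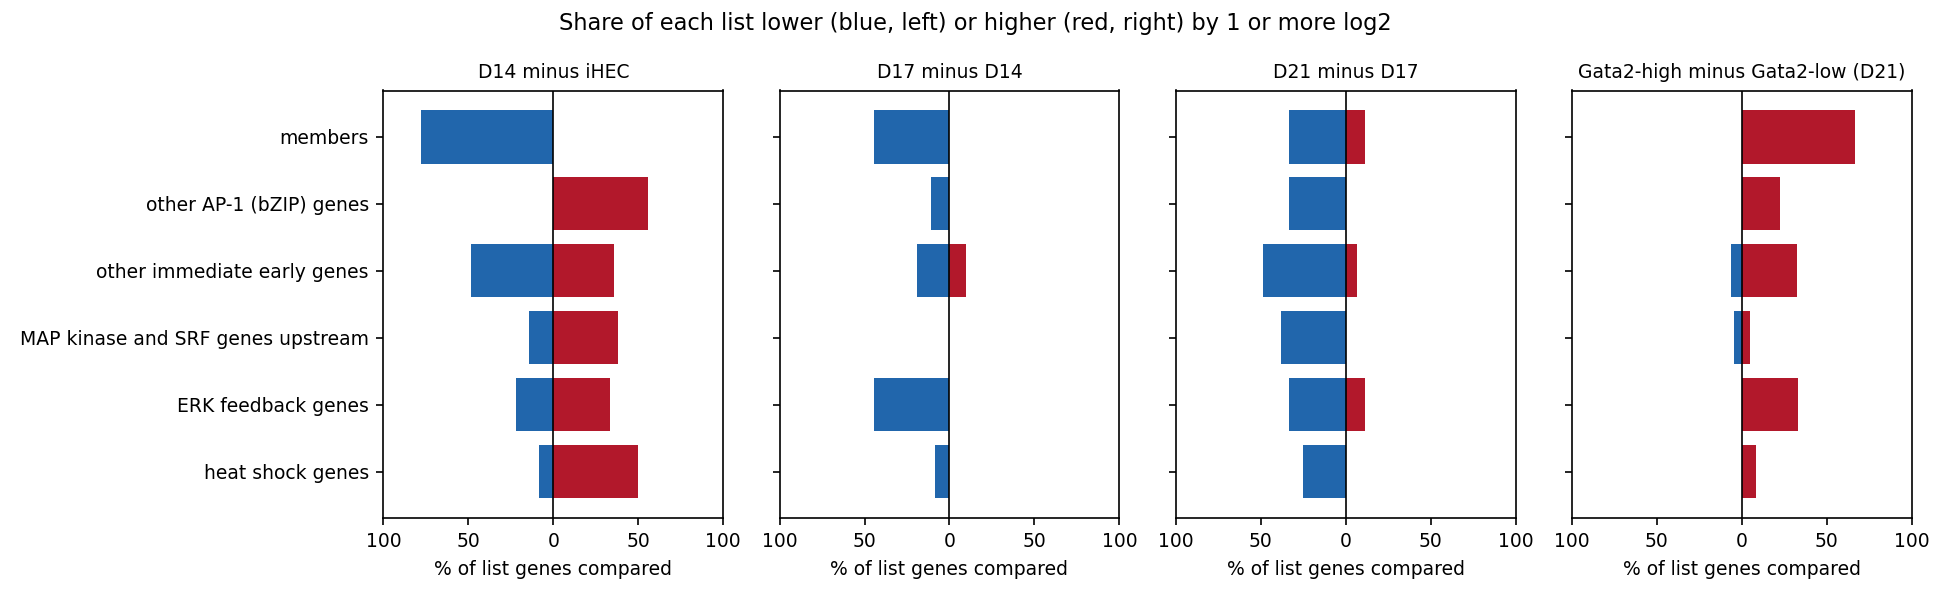
Percent of the compared genes of each list that were lower (blue, to the left) or higher (red, to the right) by 1 or more log2 in 4 comparisons: day 14 minus iHEC, day 17 minus day 14, day 21 minus day 17, and within day 21 cells with high minus low Gata2. From iHECs to day 14 7 of the 10 genes are lower, beside 11.5% of all genes, while 6 of 12 heat shock genes and 5 of 9 other AP-1 genes are higher, near the 48% of all genes that are.

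Within day 21 the cells were split at 31 TPM of Gata2, a transcription factor of stem cells, mast cells and basophils, which is not among the 10 genes. The split gave 22 Gata2-high and 34 Gata2-low cells. No day-21 cell was near it, since the last cell below held 9.18 TPM of Gata2 and the first above 66.0 TPM, so that a split at 10 TPM gave the same cells. The cell just below had 92.4 TPM of Ier3 and 66.5 of Dusp1, and the one just above 414 and 863 TPM. The number of genes above 1 TPM had similar medians in both sets, 6665.5 (3932 to 7950) in Gata2-high and 6769.5 (3188 to 7852) in Gata2-low cells. Of the mast cell or basophil markers, 10 of 11 were above 1 TPM in some Gata2-high cell. Their summed TPM ranged from 2470 to 147550 with a median of 66468 in Gata2-high cells, compared with 87.4 to 4666 and a median of 1050 in Gata2-low cells. Prss34 was listed at 0 in both sets, and Fcer1a was above 1 TPM in 2 of 22 Gata2-high cells and listed at 0 in all Gata2-low cells. T lymphoid markers summed to a median of 41.6 TPM (0 to 2010) in Gata2-high and 1605 (181 to 5093) in Gata2-low cells. Cd3e and Bcl11b were listed at 0 in all Gata2-high cells, and were above 1 TPM in 8 and 1 of the 34 Gata2-low cells. These differences move with those of the 10 genes, and their part was not tested.

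The 10 genes were higher in Gata2-high cells. Their mean log2 value was 4.0 ± 0.89 (SD between cells, n = 22 cells) in Gata2-high and 2.50 ± 1.23 (n = 34) in Gata2-low cells, and their summed TPM had a median of 1008 (304.5 to 5050) and 284 (1.42 to 1754). Of the 10 genes, 6 were higher by 1 or more and 0 lower, beside 13% and 10.2% of all genes and a median over all genes of 0. In 13 Gata2-low cells, but in 1 Gata2-high cell, 4 or fewer of the 10 genes were above 1 TPM. Most of these 13 cells had fewer genes above 1 TPM than the median Gata2-low cell. The mean log2 value of the 10 genes and the number of genes above 1 TPM had a Spearman rho of 0.642 across Gata2-low cells. Across Gata2-high cells rho was 0.416. What part the number of genes detected had in the difference between the sets was not tested.

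Ier3 differed most, by 3.80, and 80 of the 9674 genes had a higher difference. It was above 1 TPM in 22 of 22 Gata2-high cells, with a median of 356 and a range of 9.93 to 2649 TPM, and in 26 of 34 Gata2-low cells, with a median of 35.8 and a range of 0 to 826 TPM. The 2 sets overlapped, and 3 Gata2-high cells were above the highest Gata2-low cell. Dusp1 differed by 3.0. It was above 1 TPM in 22 of 22 and 25 of 34 cells, with medians of 164 (1.27 to 863) and 48.7 (0 to 242) TPM, and 9 Gata2-high cells were above all Gata2-low cells.

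Among the AP-1 subunits, Fos differed by 2.11 and Jund by 2.1. Fos was above 1 TPM in 10 of 22 Gata2-high cells (45.5%, exact Clopper-Pearson 95% interval 24.4 to 67.8%) and 5 of 34 Gata2-low cells (14.7%, 4.95 to 31.1%), and all 4 day-21 cells above 100 TPM were Gata2-high. Jund had medians of 62.1 (0 to 235.5) and 14.7 (0 to 169) TPM. Junb at 1.25 and Ier2 at 1.2 were higher as well, whereas Jun at 0.27, Fosb at 0.29 and Egr1 at 0.97 stayed under the fold. Atf3 was listed at 0 in both sets. Jun was above 1 TPM in 8 of 22 and 10 of 34 cells. The 2 day-21 cells with Egr1 above 100 TPM were both Gata2-high.

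Comparing the Gata2-low cells alone with day 17 kept the difference of Fos. It was -6.18, and again 1 gene was lower. Ier3 was then at 0.46 rather than the 1.96 of all day-21 cells. In this comparison 6 of the 10 genes were lower by 1 or more, Fos, Jun (-1.95), Junb (-1.98), Dusp1 (-1.31), Jund (-1.14) and Ier2 (-1.02), beside 38.8% of all genes and a median of -0.74, and 0 were higher, beside 1.79%. Relative to that median 3 were lower, beside 13.6%, and 1, Ier3, was higher, beside 10.6%. With 1 cell of the similar day-17 pair, 5 were lower. Markers moved with this comparison. Higher by 1 or more in Gata2-low cells were 7 of 8 mast cell or basophil, 3 of 3 innate lymphoid and 2 of 5 T lymphoid markers. Their part was not tested. This comparison and the split share the Gata2-low cells. Between Gata2-high and Gata2-low cells, 13% of all genes were higher and 10.2% lower by 1 or more. Among the other lists, 3 of 9 ERK feedback genes were higher in Gata2-high cells by 1 or more, Spred1 at 3.76, Dusp6 at 2.76 and Etv5 at 2.66, and 0 lower. Of the 31 other immediate early genes, 10 were higher, led by Sgk1 at 2.78, Klf6 at 2.56 and Nfkbiz at 2.18, and 2 lower, Nfkbia at -2.76 and Csrnp1 at -1.29. The heat shock list held 1 gene higher, Bag3 at 1.93, and 0 lower of 12, at a median of -0.09.

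Gata2 at 31 TPM or more was also seen in 12 of 65 iHECs, but in no day-14 or day-17 cell. There the differences between the 12 cells and the other 53 were 1.07 for Egr1, 0.56 for Fos, 0.44 for Junb, 0.37 for Ier2, 0.32 for Jun and 0.13 for Dusp1, and -0.31 for Fosb, -0.52 for Ier3, -0.56 for Jund and -2.17 for Atf3. The sign for Ier3, with medians of 154 and 224 TPM, for Jund and for Fosb was the opposite of that at day 21, and the sign for Fos, Junb, Ier2, Jun, Egr1 and Dusp1 was the same. In medians, however, Fos (357 and 367 TPM), Jun (312 and 401) and Junb (181 and 202) were lower in the 12 cells, while Ier2, Egr1 and Dusp1 were higher. Each difference was smaller than the SD of that gene between all iHECs. The 12 cells include both cells of a similar pair, and no value was computed without it.

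**Figure D4:**
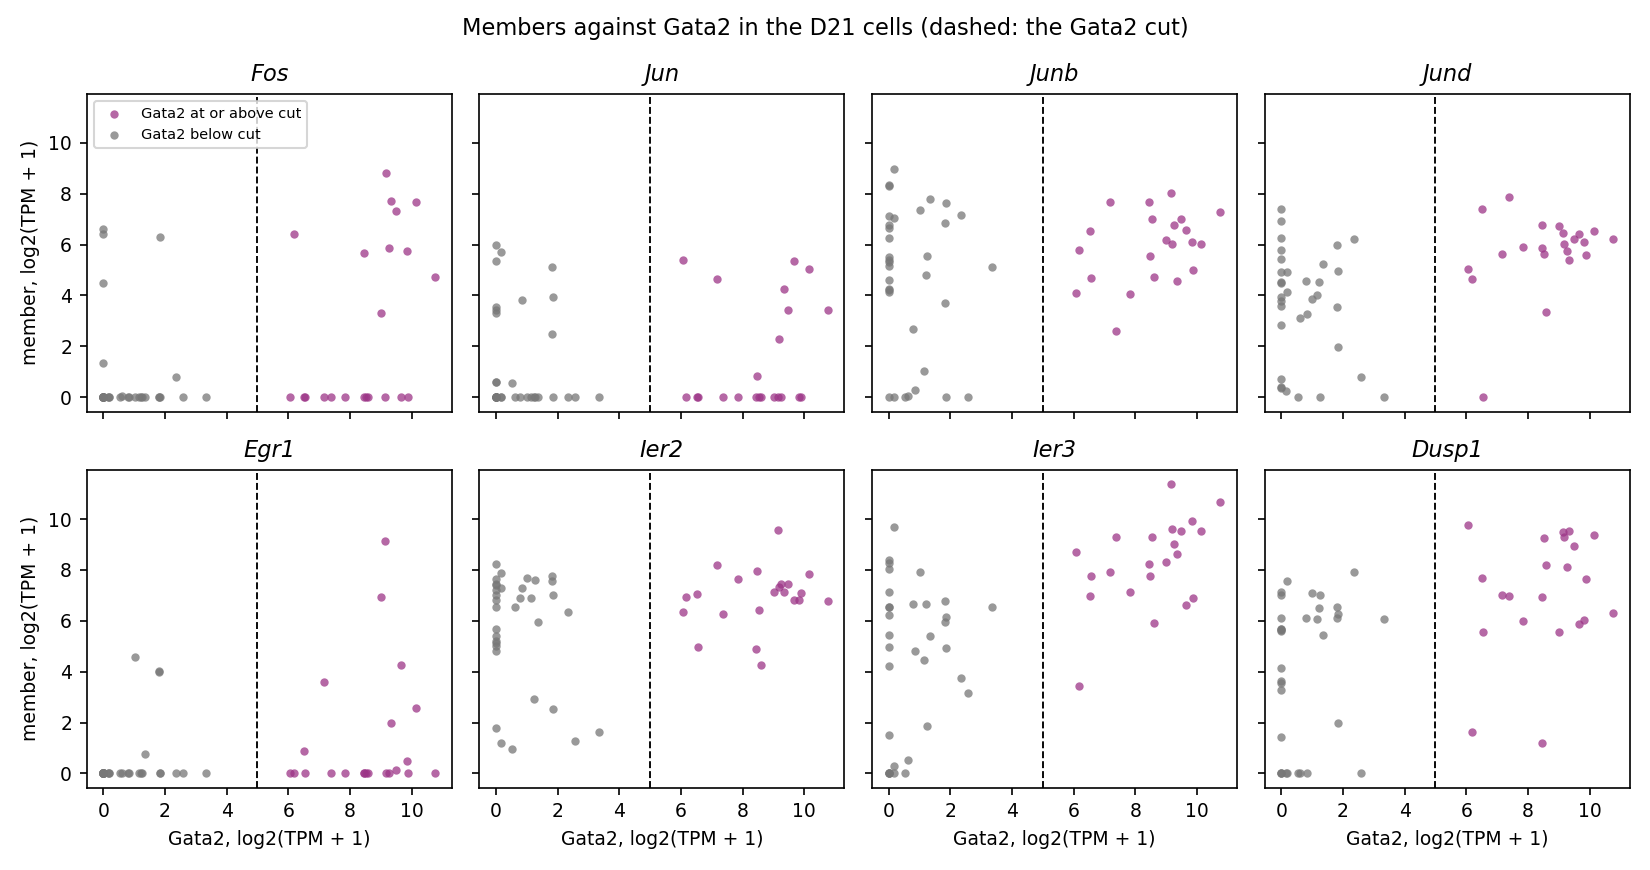
Level of 8 of the 10 genes against Gata2 in the 56 day-21 cells, both as log2(TPM + 1); each point is a cell, purple for the 22 cells at or above and gray for the 34 below the Gata2 split, which the dashed line marks at 31 TPM. Ier3 and Dusp1 are above 1 TPM in all 22 Gata2-high cells, while Fos is above 1 TPM in 10 of them.

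Coexpression was described by Spearman's rho across the cells of each group, over the 45 pairs that 10 genes form. The points of a group share library preparation and scaling, and depth is unknown, so rho is given with no test. In iHECs the median rho was 0.247 (n = 65 cells) and 42 of 45 pairs were above 0, beside a median of 0.034 over all pairs of the genes compared, and it was 0.230 with 1 cell of each similar pair. Egr1 and Ier2 had the highest value, 0.616, followed by Jun and Egr1 at 0.537, Jun and Junb at 0.530, and Egr1 and Dusp1 at 0.526. Fos and Ier3 had the lowest, -0.104. At day 14 the median was 0.397 (n = 21), beside 0.053 over all pairs of genes, and 0.415 with 1 cell of each similar pair, with Jun and Egr1 at 0.782 and Jun and Ier2 at 0.763. At day 17 the median was 0.133 (n = 18), beside 0.017, with Jund and Ier3 highest at 0.651 and Jun and Egr1 lowest at -0.389. At day 21 it was 0.303 (n = 56) over the 36 pairs without Atf3, beside 0.057, with Ier3 and Dusp1 at 0.684 and Jund and Ier3 at 0.591.

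The day-21 value was lower within the Gata2 sets and with the number of genes detected taken into account. The median was 0.179 (n = 22) within Gata2-high and 0.280 (n = 34) within Gata2-low cells. Across day-21 cells the mean log2 value of the 10 genes and the number of genes above 1 TPM had a rho of 0.509, compared with 0.107 over iHECs and 0.331 and 0.129 over the iHPCs of days 14 and 17. With the linear trend over that number removed, the median over pairs was 0.204 at day 21 and 0.233 in iHECs. Ier3 and Dusp1 remained among the highest pairs in each set, at 0.460 in Gata2-high and 0.609 in Gata2-low cells. At day 17 the median was 0.084 with 1 cell of the similar pair and 0.013 without the lowest 25% of cells by genes detected, so that no common order of the genes across day-17 cells is shown.

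Fos followed the others in part at day 21. Above 1 TPM beside Fos in all 15 Fos-positive cells were Junb, Jund, Ier2, Ier3 and Dusp1, whereas Jun was in 8 of 15 and Egr1 in 3 of 15. In the other 41 cells Ier2 was above 1 TPM in 40, Junb in 34, Ier3 in 33, Dusp1 and Jund in 32 each, Jun in 10 and Egr1 in 6. The median number of genes above 1 TPM was 7003 in the former and 6644 in the latter. Within Gata2-high cells the Ier3 median was 625 TPM in 10 cells with Fos and 216 TPM in 12 without.

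Outside the 10 genes, likeness was measured as Spearman's rho with their mean log2 value within each group, averaged over the 4 groups, among 5401 genes above 1 TPM in at least 1 in 3 cells of every group. Zfp36 was first at a mean rho of 0.530, with 0.430 over iHECs and 0.782, 0.226 and 0.682 over the iHPCs of days 14, 17 and 21. Then came Cotl1 at 0.513, Laptm5 at 0.496, Surf4 at 0.487 and Msn at 0.484. Further down were Ier5 at 0.468, Wdr1 at 0.468, Ifngr2 at 0.454 and Capg at 0.445, beside a median of 0.062 over the 5401 genes. Over iHECs, Laptm5 was at 0.056 and Msn at 0.105, while Cotl1 was at 0.365 and Surf4 at 0.314. For these 4 genes each value over an iHPC group was higher. Both cells of each similar pair were kept in this ranking. In iHECs alone, Klf6 at 0.599, Add1 at 0.570, Chmp2a at 0.514 and Btg2 at 0.513 were among the highest (n = 65 cells). At day 21 the first 5 were Tpst2 at 0.789, Rac1 at 0.738, Ier5 at 0.732, H2-T23 at 0.722 and Lcp2 at 0.721 (n = 56), beside a median of 0.128 over 7891 genes. The day-21 ranking was not adjusted for the Gata2 sets or for the number of genes detected. That number had a rho of 0.509 with the mean log2 value of the 10 genes. With 21 and 18 cells the values were higher, as smaller groups allow, with Pik3cb at 0.873 first at day 14 and Dync1i2 at 0.882 at day 17.

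**Figure D5:**
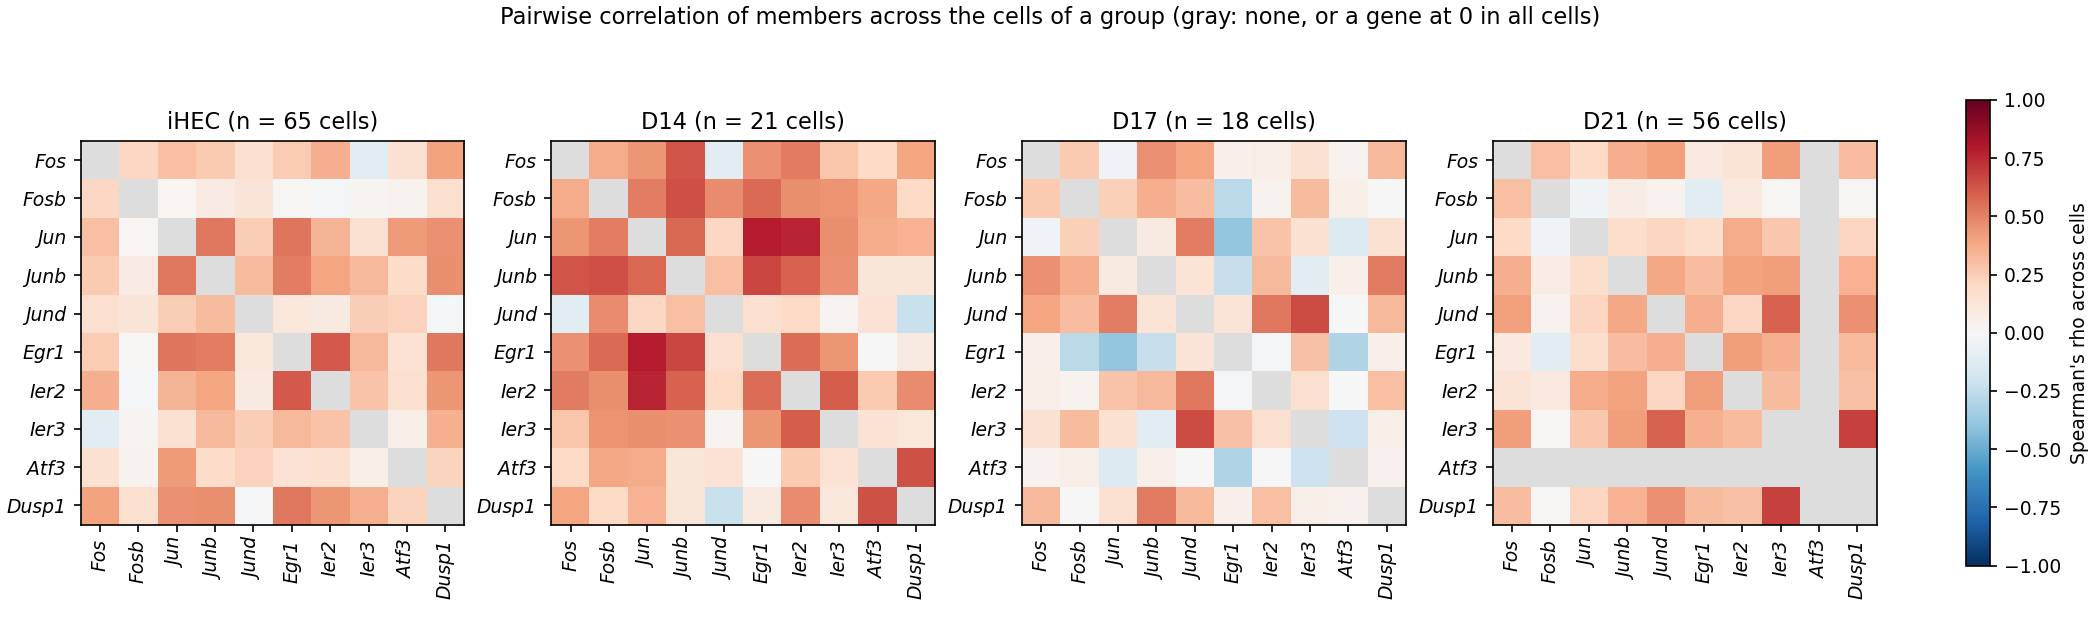
Spearman's rho across cells for every pair of the 10 genes in each group, on a color scale from -1 (blue) to 1 (red), with gray on the diagonal and where a gene was listed at 0 in all cells, as Atf3 at day 21. Most pairs are above 0 in iHECs (42 of 45) and at day 14 (43 of 45), fewer at day 17 (34 of 45), and Ier3 and Dusp1 stand out at day 21 at 0.684.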

How the data were processed

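RNA of single sorted cells was measured in 65 iHECs and 95 iHPCs. According to the labels and methods, the authors amplified cDNA (Discover-sc WTA Kit V2), checked it by qPCR of B2m and Gapdh, built libraries (TruePrep DNA Library Prep Kit V2), aligned reads to mm10 with HISAT2 2.1.0 and estimated TPM with StringTie 1.3.4. The deposited TPM values stood in 1 table, of which 0 columns were left unused. TPM keeps no depth, so precision per cell is unknown. The sources name different sequencers.

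Values were analyzed as log2(TPM + 1), and genes above 1 TPM in more than 30 cells were compared (9674). With 1 sample per group no test was run and no p-value is given. The 10 genes and the lists were chosen with earlier results of these data known. Other genes named are the largest differences of each list, the genes most like the 10 by rho, and markers beside a result. The row of 1 gene among the 10 most alike bore a date in place of a name and is not named. In iHECs, 1 gene that this rule would name is not reported here. Hras was read from the row Hras1, and Hbb-bt had no row. Scripts ran in Python 3.11.15 with pandas 2.3.3 and scipy 1.17.1 and were tested on simulated data. Gene positions are from GENCODE vM21 and promoter sequences from RefSeq. The alternatives were pseudocounts of 0.1 and 10 TPM, size factors, cells with few genes left out, another background, other Gata2 cuts, a detection level of 10 TPM and other correlations. Leaving out 1 cell of each similar pair was added after the data were seen.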

Additional observations from a re-analysis of the deposited data

How the results depend on the processing

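No test was made, so the alternatives show only how values move. Across the 5 comparisons 27 differences of single genes were 1 or more in size. They were recomputed 171 times under the alternatives, kept their sign in all 171 and stayed at 1 or more in 144. From iHECs to day 14 the mean over the 10 genes relative to all genes was -3.10, but -4.37 with a pseudocount of 0.1 TPM, -1.86 with one of 10 TPM and -2.40 with all genes above 0 in any cell as the background. From day 14 to day 17 the number of genes lower by 1 or more was 4, but 0 with a pseudocount of 10 TPM, 2 with median-of-ratios size factors, and 1, with 1 higher, without the lowest 25% of cells by genes detected. From day 17 to Gata2-low cells 6 were lower, but 2 with a pseudocount of 10 TPM, and 1 was higher without the lowest 25% of cells by genes detected. Detection at 10 TPM put the median number of the 10 genes in an iHEC at 8 in place of 9. The median rho at day 17 was 0.013 in place of 0.133 without the lowest 25% of cells by genes detected, and at day 21 it was 0.179 within Gata2-high cells in place of 0.303. Size factors moved the median difference over all genes from 0.93 to 0.80 at the first step, from 0.28 to 0.40 at the second and from 0 to 0.13 between the Gata2 sets of day 21. The causes of these changes were not tested. No paired analysis was possible because the numbers in the labels only name cells and no result comes from a test. Depth is unknown in TPM, a value of 0 may be a failed estimate, and each group is 1 sample.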
